A study of Mus musculus with 16 samples.

Results

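The basement membrane adhesion genes Itga2, Itga3, Itga6, Itgb1, Itgb4, Lama3, Lamb3, Lama5 and Col17a1 were read in mouse colon organoids. These 9 genes were chosen by name, out of 54123 genes for which transcript counts could be summed, and each was followed over all 16 libraries. An epithelial cell holds on to the sheet of matrix beneath it through integrins, which are pairs of an alpha and a beta chain that bind matrix outside the cell and the cytoskeleton inside it. Laminins are the main ligands in that sheet, and each is a trimer of an alpha, a beta and a gamma chain. Laminin-332 takes its alpha chain from Lama3 and its beta chain from Lamb3 and is deposited by epithelial cells themselves, while the alpha-5 chain made from Lama5 joins other beta and gamma chains in the laminins that underlie most of the gut epithelium. In the intestine laminin-332 lies under the mature cells near the surface, and the integrin made from Itga6 and Itgb4 anchors cells to it in hemidesmosomes.

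The organoids were epithelial cultures in Matrigel, a laminin-rich extract of basement membrane, and came from the colons of 2 female mice aged 8 weeks. The mice were heterozygous for a Cre-inducible BRAF V600E allele and for a tdTomato reporter, and no Cre is given for these cultures. Organoids of the proximal colon (its first centimetre) or the distal colon (its last centimetre) received lentiviral Cas9 with Scramble-sgRNA as the control or with Cdx2-sgRNA, against the intestinal transcription factor Cdx2, and were selected with blasticidin. In month 4 of culture, 2 days in WENR-plus medium (with Wnt3a, EGF, Noggin and R-spondin) were followed by 3 days either in that medium or in WENR-minus medium, which lacks these factors. Region, guide and medium make 8 groups of 2 libraries, which the labels call biological replicates. Each Cdx2-sgRNA culture was a clone raised from a single cell, with frameshifts in both alleles, and no such step is described for Scramble-sgRNA organoids, so the guide and the growth from a single cell cannot be told apart.

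Total estimated counts ranged from 12465194 to 18922143 per library, and mitochondrial ribosomal RNA took 15.4 to 28% of them. Cdx2 RNA was read in every library (515 to 3269 reads), was lower with Cdx2-sgRNA in proximal organoids (log2 fold change −2.09 with Wnt factors, SE 0.21, adjusted p = 5.48e-05, and −1.29 without them, SE 0.20, adjusted p = 0.000679) and was not called different in distal organoids. RNA with a frameshift is counted like any other, so this does not measure the protein. All 7 colon epithelial markers were read in every library, with at least 343 reads each, and the stromal markers Dcn and Lum were at 0 in all. The summed levels of the stromal, smooth muscle and endothelial marker lists never passed 2.00 CPM (the count per library size, scaled between libraries with TMM factors), and that of 5 immune markers lay between 0.154 and 10.2 CPM, nearly all of it Cd68. The epithelial list summed to 4130 to 5420 CPM in the 8 WENR-plus libraries and to 13200 to 19800 CPM in the 8 WENR-minus ones, so it was higher without Wnt factors in every setting, as were Lamb3, Itga3 and Lama3 below. The immune sum was 4.71 to 10.2 CPM in the 4 proximal Cdx2-sgRNA libraries, where Lama5 was highest, and 0.625 to 1.78 in the 4 proximal controls. The part of either sum in the members' results was not tested.

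Where levels of different genes are set side by side they are given as TPM, which corrects for transcript length. By the median over 16 libraries, the order was Itgb1 at 215 TPM, Itga6 at 99.6, Itga3 at 80.4, Lamb3 at 76.0, Itgb4 at 65.2, Itga2 at 40.0, Lama5 at 21.4, Lama3 at 7.15 and Col17a1 at 0.00782. Itgb1, the beta chain shared by most integrins of these cells, was both the most abundant and the least variable member. Its highest library held 1.79 times the CPM of its lowest, against 2.29 times for Itga6, 3.95 for Itga3, 4.05 for Itga2, 5.42 for Itgb4 and 8.52 for Lamb3. The 2 laminin alpha chains varied most, with 18.8 times between the extremes for Lama5 and 88.4 times for Lama3. In bulk libraries like these, fewer cells that express a gene and less of its RNA per cell cannot be told apart.

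**Figure D1:**
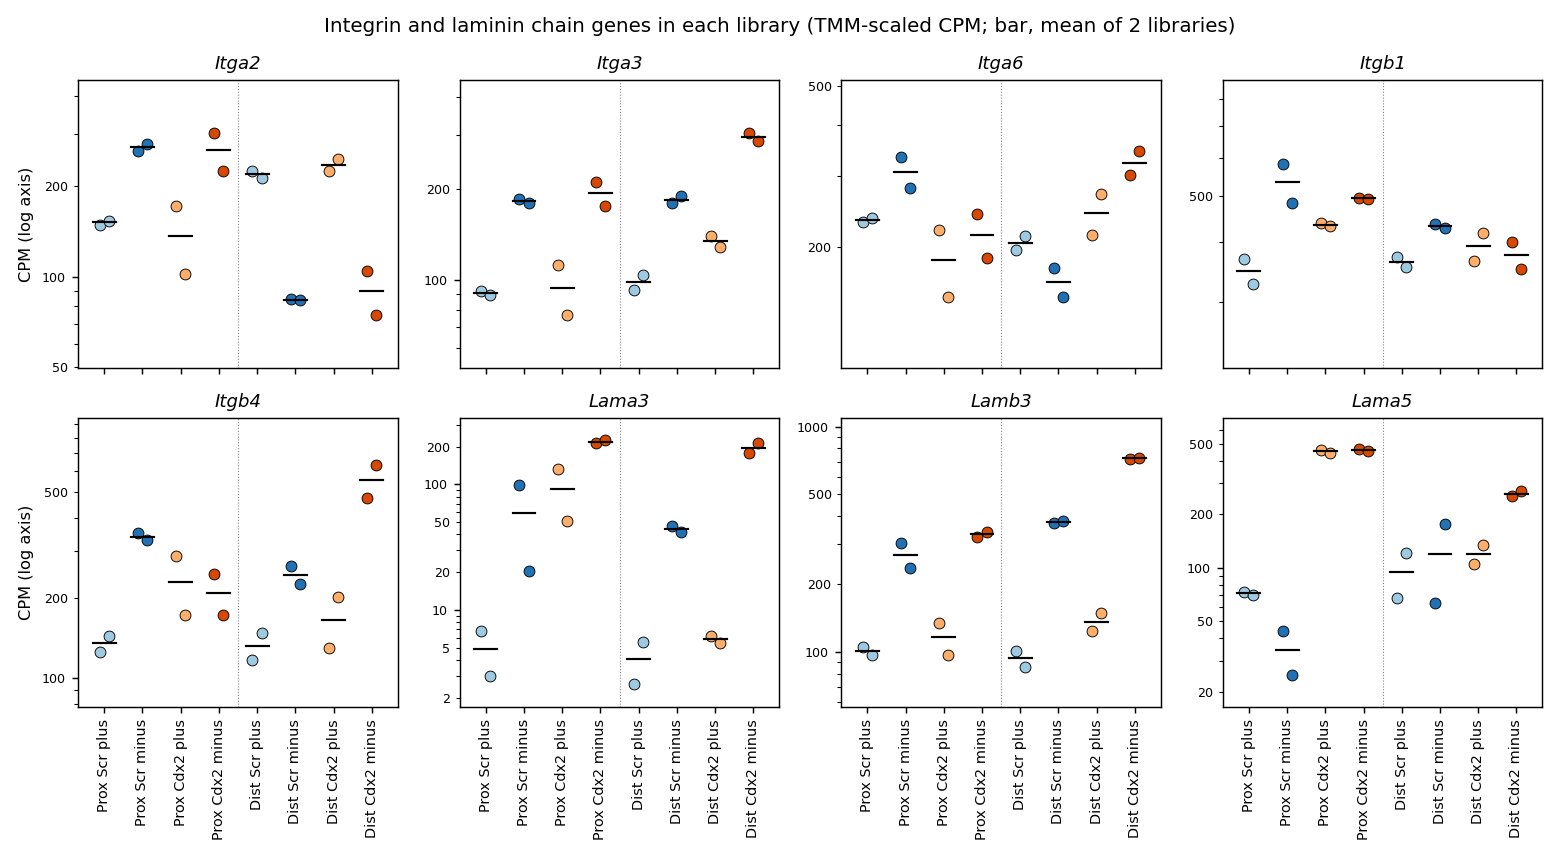
Each panel plots the TMM-scaled CPM of 1 of 8 members (all but Col17a1) on a log axis for all 16 libraries, with a bar at the mean of the 2 libraries of a group. Groups are named by region (Prox or Dist), guide (Scr for Scramble-sgRNA, Cdx2 for Cdx2-sgRNA) and medium (plus or minus for WENR-plus or WENR-minus). Lama3 spans 2.55 to 226 CPM, Lamb3 is higher in all 8 WENR-minus libraries than in any WENR-plus library, and Itga2 is higher without Wnt factors in proximal and lower in distal organoids.

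In GRCm38 coordinates (GENCODE vM21), Itga2 lies on chromosome 13 from 114833081 to 114932100 and Itga3 on chromosome 11 from 95044474 to 95076801, both on the minus strand. Itga6 lies on chromosome 2 from 71745616 to 71858416, Itgb1 on chromosome 8 from 128685654 to 128733200 and Itgb4 on chromosome 11 from 115974709 to 116008412, all on the plus strand. Among the matrix genes, Lama3 lies on chromosome 18 from 12333819 to 12583013 and Lamb3 on chromosome 1 from 193207699 to 193343878, both on the plus strand. Lama5 is on the minus strand of chromosome 2 from 180176373 to 180225859 and Col17a1 on that of chromosome 19 from 47646344 to 47692094. Reads were counted over annotated transcripts, and the genes annotated as overlapping a member were at or near 0 reads.

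Lamb3, the beta chain of laminin-332, rose without Wnt factors in both regions and with both guides. In proximal Scramble-sgRNA organoids its 2 libraries stood at 105 and 97.2 CPM in WENR-plus and at 305 and 235 in WENR-minus medium. In proximal Cdx2-sgRNA organoids they stood at 134 and 96.9 in WENR-plus and 322 and 341 in WENR-minus medium. The media did not overlap in either case. The log2 fold change was 1.42 with Scramble-sgRNA (SE 0.18, adjusted p = 0.000481, edgeR quasi-likelihood test with Benjamini-Hochberg adjustment, as throughout) and 1.52 with Cdx2-sgRNA (SE 0.18, adjusted p = 0.00117). The latter call was lost when only its own 4 libraries were fitted (1.53, adjusted p = 0.122). Distal Scramble-sgRNA libraries held 101 and 85.6 CPM in WENR-plus and 374 and 382 in WENR-minus medium, and distal Cdx2-sgRNA libraries 124 and 148, and 721 and 729. The distal change was 2.02 in controls (SE 0.19, adjusted p = 3.73e-05) and 2.41 with Cdx2-sgRNA (SE 0.19, adjusted p = 6.38e-06). The last of these groups was the highest of all 8, at 725 ± 6.17 CPM (SD, n = 2), and the next, distal Scramble-sgRNA organoids in the same medium, held 378 ± 5.81. The 4 WENR-plus groups filled the bottom of the order (93.4 to 136 CPM), where neighbouring groups overlapped.

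Within WENR-minus medium Lamb3 passed the test between the guides in distal organoids and between the regions with Cdx2-sgRNA. Distal organoids held more of it with Cdx2-sgRNA (log2 fold change 0.94, SE 0.18, adjusted p = 0.0115), a difference that passes the test but not the threshold for a call used here, an absolute log2 fold change over 1 together with adjusted p below 0.05. In proximal organoids the corresponding difference was 0.30 (SE 0.18, adjusted p = 0.232). Proximal Cdx2-sgRNA organoids held less than distal ones (log2 fold change −1.13, SE 0.18, adjusted p = 0.000455), a difference that shrank to −0.42 when libraries were scaled by their size alone. With Scramble-sgRNA the difference between regions was −0.49 (SE 0.18, adjusted p = 0.113), which did not pass. In the Cdx2-sgRNA comparison of regions, library size alone moved the median of all genes to 0.836, from 0.132 with TMM factors. The 4 distal WENR-minus libraries had the lowest TMM factors (0.656 to 0.804).

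Nearly all Lamb3 reads (99.7 to 100%) were assigned to 1 transcript. The RefSeq promoter window at its start is shown with that of Lama5, because Lamb3 was called between the media in both regions and Lama5 between the guides in proximal organoids. Both run 5′ to 3′ on the strand of the gene in GRCm38.p6, with 250 bases before the start in lower case and the first 30 transcribed bases in capitals. The windows are chr1:193301744-193302023 (plus strand) for Lamb3 and chr2:180225830-180226109 (minus strand) for Lama5.
Lamb3: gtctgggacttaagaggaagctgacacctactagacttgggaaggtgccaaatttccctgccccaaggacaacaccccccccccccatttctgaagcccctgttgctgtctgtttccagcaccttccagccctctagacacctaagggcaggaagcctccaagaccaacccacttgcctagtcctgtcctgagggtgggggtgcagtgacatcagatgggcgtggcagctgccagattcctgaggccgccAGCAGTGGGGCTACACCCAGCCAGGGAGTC
Lama5: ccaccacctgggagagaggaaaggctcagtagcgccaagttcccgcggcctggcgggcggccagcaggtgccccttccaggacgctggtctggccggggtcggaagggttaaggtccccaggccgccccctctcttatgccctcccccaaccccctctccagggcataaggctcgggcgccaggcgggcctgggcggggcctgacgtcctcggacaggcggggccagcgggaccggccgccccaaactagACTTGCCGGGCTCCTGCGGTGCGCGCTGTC
Windows from 250 bases before to 50 after a start were at hand for 6 of the 9 members, 8 windows in all, since Lamb3 and Itga3 have 2 each. They were searched on both strands for TTTAT, the core of the site that CDX proteins bind, and for TGANTCA, the site of AP-1 factors, motifs that can share at most 1 base. TTTAT was found in 2 of the 8 (Col17a1 and 1 window of Itga3) and in 40% of 32851 promoters of all genes. TGANTCA was found in 1 of the 8 (the same window of Itga3) and in 7.81% of all. That window lies at the start of a transcript with 1.45% of the Itga3 reads. The Itga3 window at the start of the transcript with 91.9% of them held neither motif. Neither set of letters was in the windows of Lamb3 or Lama5, and the Lama5 window was rich in G and C (72.7%, against 59.3% for Lamb3).

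Lama3, the alpha chain of laminin-332, had the widest range. In proximal Scramble-sgRNA organoids it stood at 6.79 and 2.96 CPM in WENR-plus and at 98.8 and 20.5 in WENR-minus medium. In proximal Cdx2-sgRNA organoids it stood at 134 and 51.1 in WENR-plus and at 215 and 226 in WENR-minus medium. The higher WENR-plus library with Cdx2-sgRNA thus stood above all 4 proximal controls of either medium, and the lower one above 3 of them. Distal Scramble-sgRNA libraries held 2.55 and 5.54 CPM in WENR-plus and 47.1 and 41.9 in WENR-minus medium. Distal Cdx2-sgRNA libraries held 6.25 and 5.45, and 177 and 214. In distal organoids the 4 WENR-plus libraries of both guides lay between 2.55 and 6.25 CPM, and no WENR-minus library was below 41.9.

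Lama3 rose without Wnt factors in proximal control organoids (log2 fold change 3.60, SE 0.71, adjusted p = 0.00370), in distal control organoids (3.46, SE 0.72, adjusted p = 0.00275) and in distal organoids with Cdx2-sgRNA (5.06, SE 0.75, adjusted p = 0.000232). Proximal Cdx2-sgRNA organoids showed 1.25 (SE 0.63, adjusted p = 0.222), which did not pass. It was called (1.41, SE 0.36, adjusted p = 0.0189) with a replicate block within each region and guide, which compares the media between libraries of the same number and was added after the data were seen. The first value rests partly on 1 library, and without replicate 1 of WENR-minus medium it was 2.08 (adjusted p = 0.0359). With Cdx2-sgRNA, proximal organoids held more Lama3 in WENR-plus (4.23, SE 0.73, adjusted p = 0.00202) and in WENR-minus medium (1.89, SE 0.65, adjusted p = 0.0452). The WENR-plus call was kept with each library left out in turn, at 3.37 to 5.00. The WENR-minus call was lost without either Cdx2-sgRNA library (1.93 and 1.83, adjusted p = 0.0913 and 0.128) or Scramble-sgRNA replicate 2 (1.15, adjusted p = 0.19) and when only its own 4 libraries were fitted (1.92, adjusted p = 0.113), and the change was 3.45 without Scramble-sgRNA replicate 1. In distal WENR-minus organoids the change was 2.13 (SE 0.65, adjusted p = 0.0622), with no overlap between the guides. It was called with a replicate block (2.17, adjusted p = 0.0438), with only the libraries of the comparison (2.11, adjusted p = 0.0162), with at least 10 reads in every library (2.16, adjusted p = 0.0416), with no filter and with DESeq2 (2.15, adjusted p = 0.0059). In distal WENR-plus organoids it was 0.53 (SE 0.70, adjusted p = 0.974).

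Lama3 makes a long transcript and a short one from an internal start, and the short one encodes the alpha chain of laminin-332 proper. Salmon divided the reads between both, and the shares are given without a test. In proximal Cdx2-sgRNA organoids the short form took 72.7 and 87.7% of them with Wnt factors and 85 and 96.5% without. Proximal Scramble-sgRNA organoids had 72.9 and 77.8% in WENR-minus medium, and 49.5 and 58.2% in WENR-plus medium, where only 142 and 50 reads were divided. Proximal WENR-minus libraries thus all held mostly the short form, with 16 to 218 CPM of it. Distal WENR-minus libraries were mixed, at 68.2 and 44.8% with Scramble-sgRNA and 46.4 and 62.7% with Cdx2-sgRNA. At like totals, the long form stood at 94.8 and 79.7 CPM in distal and at 32.2 and 7.9 CPM in proximal Cdx2-sgRNA WENR-minus organoids.

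Lama5, the alpha chain of laminin-511 and laminin-521, followed the guide in proximal organoids. Proximal Scramble-sgRNA libraries held 73.2 and 70.5 CPM in WENR-plus and 43.9 and 24.8 in WENR-minus medium. Proximal Cdx2-sgRNA libraries held 464 and 442 in WENR-plus and 466 and 457 in WENR-minus medium. The lowest of the 4 proximal Cdx2-sgRNA libraries was thus at 442 CPM and the highest of the 4 proximal controls at 73.2. The difference was 6.31-fold in WENR-plus (log2 fold change 2.66, SE 0.44, adjusted p = 0.00152) and 13.4-fold in WENR-minus medium (3.75, SE 0.46, adjusted p = 0.000140). Both calls held under every alternative run, at 2.50 to 2.72 and 3.38 to 4.25.

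In distal organoids the control libraries of Lama5 were spread widely, at 67.8 and 122 CPM in WENR-plus and at 63.3 and 177 in WENR-minus medium. Distal Cdx2-sgRNA libraries held 105 and 134 in WENR-plus and 254 and 270 in WENR-minus medium. The guides overlapped in WENR-plus medium (0.33, SE 0.41, adjusted p = 0.974) and did not in WENR-minus medium (1.12, SE 0.42, adjusted p = 0.114), and neither difference passed in this fit. The latter was called without distal Scramble-sgRNA replicate 2 (2.05, adjusted p = 0.0444), with no filter and with DESeq2 (1.14, adjusted p = 0.0381). Without Wnt factors distal Cdx2-sgRNA organoids held 1.13 (SE 0.42, adjusted p = 0.0422) more, a call that was lost without any 1 of its 4 libraries (1.04 to 1.35, adjusted p = 0.0888 to 0.171) and with library size alone (0.46, adjusted p = 0.38). In proximal Scramble-sgRNA organoids the media did not overlap, and the change was −1.07 (SE 0.42, adjusted p = 0.0778). It did not pass in this fit and was called under 6 alternatives, among them DESeq2 (−1.05, adjusted p = 0.0399), library size alone (−1.42, adjusted p = 0.0262) and the block within region and guide (−1.12, adjusted p = 0.00195).

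Other members of the laminin network were read with Lama5. Lamb2, the beta chain of laminin-521, stood at 72.5 and 74.8 CPM in proximal Cdx2-sgRNA organoids in WENR-plus and at 104 and 122 in WENR-minus medium, and at 12.8 to 20.2 in the proximal controls. The log2 fold change with Cdx2-sgRNA was 1.95 in WENR-plus (SE 0.30, adjusted p = 0.00103) and 2.96 in WENR-minus medium (SE 0.31, adjusted p = 5.34e-05). Lamc1, the gamma chain of both, was 1.22 (SE 0.24, adjusted p = 0.00260) higher with Cdx2-sgRNA in WENR-minus medium and had 0.48 (SE 0.23, adjusted p = 0.154) in WENR-plus medium, which did not pass. Lama4, a further laminin alpha chain, was called lower in WENR-plus medium (adjusted p = 0.0125), from a mean of 1.48 CPM in controls to 0. Bcam, a receptor of the alpha-5 chain that was picked out here after its values were seen, had a log2 fold change of 4.31 in WENR-plus (SE 0.71, adjusted p = 0.00153) and of 5.90 in WENR-minus medium (SE 0.78, adjusted p = 0.000228). It is 1 of 11 tested basement membrane components and receptors outside the members. Of these, 4 were called higher and 1 lower in WENR-plus medium (6.93 and 8.94% of all genes). In WENR-minus medium 6 were higher and 1 lower (9.04 and 12.1% of all). Col4a5 had the largest rise in both media, and the lower gene was Nid2.

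Krt4, a squamous keratin, stood higher with Cdx2-sgRNA in both regions and both media, and its part in these results was not tested. It stood at 1470 CPM in both proximal Cdx2-sgRNA WENR-minus libraries and at 257 and 339 in WENR-plus medium, against 7.87 to 41.5 in the proximal controls. The summed level of 6 squamous or basal markers was 1530 and 1480 CPM in the proximal Cdx2-sgRNA WENR-minus libraries and 263 and 339 in the WENR-plus ones. Nearly all of it was Krt4 in these libraries. The sum was 10.5 to 42.6 CPM in the proximal controls. In distal libraries it was 3.46 to 14.8 CPM with Scramble-sgRNA and 34.9 to 78.0 with Cdx2-sgRNA, with no overlap. Mean distal Krt4 with Scramble-sgRNA was 8.38 CPM in WENR-plus and 2.24 in WENR-minus medium. With Cdx2-sgRNA the distal means were 63.0 and 36.9 CPM. Of the 6 markers, 5 passed 3 reads in some library. Krt13 (up to 6.35 CPM) and Dsg3 had their highest values in distal Cdx2-sgRNA WENR-minus libraries. The basal cell markers Krt5 and Trp63 stayed at or below 10 and 3 reads in every library, and Krt14 reached at most 57.5 CPM. Col17a1, the collagen of basal cell hemidesmosomes, stayed near 0 with Krt5 and Trp63.

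The integrin alpha chains fell into different patterns. Itga3, which pairs with Itgb1 as a receptor of laminin-332 and laminin-511, rose without Wnt factors like Lamb3. It stood at 92.5 and 89.4 CPM in WENR-plus and at 185 and 179 in WENR-minus medium in proximal Scramble-sgRNA organoids. With Cdx2-sgRNA, proximal libraries held 112 and 77.0, and 210 and 175. The media did not overlap, and the log2 fold changes of 1.00 in controls (SE 0.17, adjusted p = 0.00163) and 1.03 with Cdx2-sgRNA (SE 0.17, adjusted p = 0.00446) sat at the fold threshold. Both failed it under some alternatives, among them library size alone (0.65 and 1.00), and the latter did not pass the test when only its own 4 libraries were fitted (1.03, adjusted p = 0.138). Distal Scramble-sgRNA libraries held 93.0 and 104 CPM in WENR-plus and 179 and 189 in WENR-minus medium, and distal Cdx2-sgRNA libraries 140 and 129, and 304 and 286. The distal change was 0.90 in controls (SE 0.17, adjusted p = 0.00156) and 1.13 with Cdx2-sgRNA (SE 0.17, adjusted p = 0.000240), the latter 0.46 by library size alone. Distal WENR-minus organoids held more Itga3 with Cdx2-sgRNA (0.68, SE 0.17, adjusted p = 0.0287), short of the fold threshold. In proximal organoids the guides overlapped in both media.

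Itga2, which pairs with Itgb1 as a collagen receptor, moved in opposite directions in the regions. In proximal Scramble-sgRNA organoids it went from 149 and 154 CPM in WENR-plus to 262 and 277 in WENR-minus medium, and with Cdx2-sgRNA from 172 and 102 to 302 and 226. In distal Scramble-sgRNA organoids it went from 226 and 214 down to 84.6 and 83.6, and with Cdx2-sgRNA from 225 and 247 down to 105 and 74.5. The media did not overlap in any of the 4 comparisons, and the guides overlapped in every one. The proximal rise was 0.83 in controls (SE 0.23, adjusted p = 0.0211) and 0.95 with Cdx2-sgRNA (SE 0.23, adjusted p = 0.0232), under the fold threshold. The distal fall was called, at −1.39 in controls (SE 0.24, adjusted p = 0.000872) and −1.40 with Cdx2-sgRNA (SE 0.24, adjusted p = 0.000557). The proximal minus the distal response to the medium was 2.22 in controls (SE 0.33, adjusted p = 0.0454) and 2.34 with Cdx2-sgRNA (SE 0.33, adjusted p = 0.00116), and the latter test was added after the data were seen. The first call was lost without any 1 of its 8 libraries (2.17 to 2.24, adjusted p = 0.0742 to 0.263) and with RLE size factors (2.17, adjusted p = 0.0542), and the second was kept in all of these.

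Itgb1 varied little. Proximal Scramble-sgRNA libraries held 369 and 326 CPM in WENR-plus and 584 and 483 in WENR-minus medium, the highest group mean at 534 ± 71.4 (SD, n = 2). The rise was 0.62 (SE 0.14, adjusted p = 0.00693), and in the other 3 comparisons of media it lay between −0.06 and 0.25, none past the test. Over the other 6 groups the libraries ranged from 351 to 495 CPM.

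Itga6 and Itgb4 form the laminin receptor of hemidesmosomes, and Itgb4 varied more than its partner. Itgb4 stood at 125 and 144 CPM in WENR-plus and 350 and 330 in WENR-minus medium in proximal Scramble-sgRNA organoids. With Cdx2-sgRNA, proximal libraries held 287 and 173, and 245 and 173. The controls thus separated by medium (1.34, SE 0.29, adjusted p = 0.00571), while the Cdx2-sgRNA libraries overlapped (−0.14, SE 0.28, adjusted p = 0.814). The call in controls was lost with library size alone (0.99, adjusted p = 0.0134). Distal Scramble-sgRNA libraries held 117 and 148 CPM in WENR-plus and 264 and 225 in WENR-minus medium, and distal Cdx2-sgRNA libraries 129 and 201, and 476 and 633. The distal rise was 0.88 in controls (SE 0.28, adjusted p = 0.0278) and 1.75 with Cdx2-sgRNA (SE 0.29, adjusted p = 0.000477). The last group was highest at 555 ± 111 CPM (SD, n = 2), and its difference from the distal WENR-minus controls was 1.18 (SE 0.29, adjusted p = 0.0271), a call lost without any 1 of the 4 libraries (0.96 to 1.37, adjusted p = 0.0524 to 0.187) and with library size alone (0.97, adjusted p = 0.033). In proximal WENR-minus organoids the difference of Itgb4 with Cdx2-sgRNA was −0.70 (SE 0.28, adjusted p = 0.0822), which did not pass. In proximal WENR-plus organoids the guides did not overlap, and the difference was 0.77 (SE 0.28, adjusted p = 0.0687). It was called without Cdx2-sgRNA replicate 2 (adjusted p = 0.0327) and under no other alternative run.

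Itga6 kept within 151 and 345 CPM. Proximal Scramble-sgRNA libraries held 231 and 236 in WENR-plus and 334 and 280 in WENR-minus medium, and proximal Cdx2-sgRNA libraries 221 and 151, and 241 and 188. Distal Scramble-sgRNA libraries held 197 and 213 in WENR-plus and 178 and 151 in WENR-minus medium, and distal Cdx2-sgRNA libraries 215 and 271, and 301 and 345. Its changes with the medium, −0.32 to 0.41, did not pass without a block (adjusted p = 0.121 to 0.559). With the block within region and guide, the rise passed in proximal Scramble-sgRNA (0.39, SE 0.14, adjusted p = 0.042) and distal Cdx2-sgRNA organoids (0.42, SE 0.14, adjusted p = 0.0245), short of the fold threshold. With Cdx2-sgRNA in WENR-minus medium it differed by 0.97 in distal organoids (SE 0.21, adjusted p = 0.0163) and by −0.52 in proximal ones (SE 0.20, adjusted p = 0.0769, which did not pass), and the guides did not overlap in either region. The effects in the 2 regions differed by −1.49 (SE 0.29, adjusted p = 0.00574), a call kept under every alternative run.

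The alpha-6 chain has 2 forms of its cytoplasmic tail, set by an exon of 130 bases that the alpha-6A transcript includes and the alpha-6B transcript skips. Their coding ends are shown because the shares of the 2 forms differed between the media in control organoids. Both are from the plus strand of GRCm38 (GENCODE vM21), chr2:71853534-71853641 for alpha-6A and chr2:71855854-71856015 for alpha-6B, with the stop codon in capitals.
alpha-6A: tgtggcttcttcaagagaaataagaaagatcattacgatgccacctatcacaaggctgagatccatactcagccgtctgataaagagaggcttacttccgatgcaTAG
alpha-6B: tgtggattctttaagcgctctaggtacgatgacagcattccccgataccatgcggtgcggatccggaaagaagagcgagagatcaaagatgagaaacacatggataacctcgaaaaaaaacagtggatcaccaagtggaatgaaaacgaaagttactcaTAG
The alpha-6A tail has 105 coding bases after the junction and the alpha-6B tail 159. Both begin with the same 5 bases and end in the same stop codon.

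Of the reads given to these 2 transcripts, the alpha-6B transcript took 28.2 and 32.2% in WENR-plus and 58.6 and 52.2% in WENR-minus medium in proximal Scramble-sgRNA organoids. In distal Scramble-sgRNA organoids it took 35.1 and 9.74%, and 62.7 and 68.8%. Control organoids of both regions thus held mostly the alpha-6A transcript with Wnt factors and mostly the alpha-6B transcript without them, with no overlap. In proximal Cdx2-sgRNA organoids the share was 16.4 and 19.2% in WENR-plus and 19.5 and 17.5% in WENR-minus medium. In distal Cdx2-sgRNA organoids it was 34.1 and 34.4%, and 40.6 and 56.5%. The 4 proximal Cdx2-sgRNA libraries stayed at or below 19.5% in either medium. No test was made on these shares, a further transcript without coding sequence took 21.4 to 33.2% of all Itga6 reads, and the division of reads that fit several transcripts is an estimate by Salmon.

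**Figure D2:**
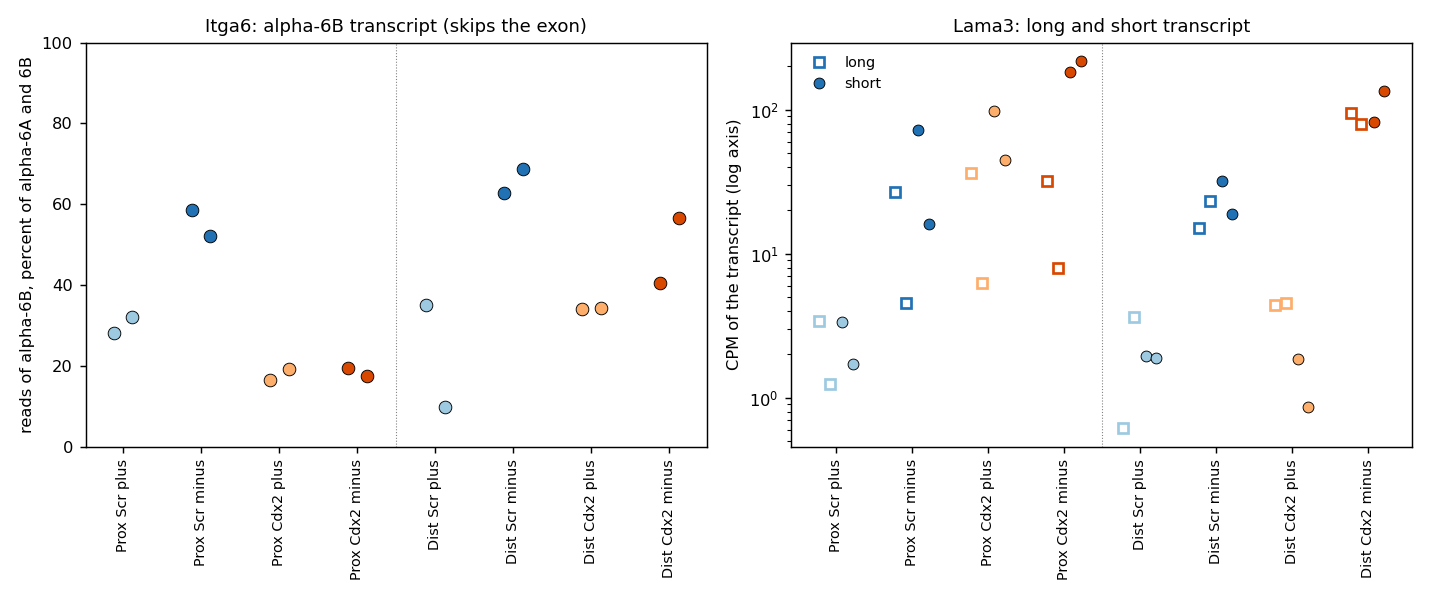
The left panel plots, for each of the 16 libraries, the alpha-6B reads of Itga6 as a percent of alpha-6A and alpha-6B reads together, and the right panel the CPM of the long (squares) and the short (circles) Lama3 transcript on a log axis, with groups named as in the plot of levels. The alpha-6B share stays between 16.4 and 19.5% in the 4 proximal Cdx2-sgRNA libraries and is 52.2% or more in the 4 Scramble-sgRNA WENR-minus libraries, and the short Lama3 transcript reaches 183 and 218 CPM in proximal Cdx2-sgRNA WENR-minus organoids.

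Col17a1, a transmembrane collagen of hemidesmosomes, was at 0 reads in 3 of the 4 Scramble-sgRNA groups and at 0 and 1 read in the last, distal WENR-minus organoids. In Cdx2-sgRNA organoids the libraries held 3 and 0 reads in proximal WENR-plus, 3 and 3 in proximal WENR-minus, 10 and 1 in distal WENR-plus and 11 and 1 in distal WENR-minus medium. It passed the filter on low counts through the Cdx2-sgRNA libraries, and no comparison of it passed the test (lowest unadjusted p = 0.0510). Groups at 3 reads or fewer were taken as at the floor of detection, and no fold change is given against them.

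The plaque proteins that tie Itgb4 to keratin filaments were read beside it. Plec, which makes plectin, stood at 195 and 202 CPM in WENR-plus and 944 and 700 in WENR-minus medium in proximal Scramble-sgRNA organoids, and at 255 and 268, and 1350 and 2440 in distal Cdx2-sgRNA organoids. It was called higher without Wnt factors in all 4 comparisons, at 1.01 to 2.86, and so was Dst, which makes the plakin dystonin, at 1.36 to 2.57. In WENR-minus medium Plec was lower with Cdx2-sgRNA in proximal (−1.16, SE 0.27, adjusted p = 0.00756) and higher in distal organoids (1.25, SE 0.27, adjusted p = 0.0181). The proximal minus the distal effect was −2.41 for Plec (SE 0.38, adjusted p = 0.00192) and −2.27 for Dst (SE 0.42, adjusted p = 0.00458). Those of Itgb4 and Itga6, given below with the guides, had the same sign. Cd151, a tetraspanin that binds laminin receptors, was called higher without Wnt factors in distal controls alone (1.06, SE 0.23, adjusted p = 0.00325), where distal Cdx2-sgRNA organoids had 0.98 (SE 0.23, adjusted p = 0.00385), just short of the fold threshold.

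**Figure D3:**
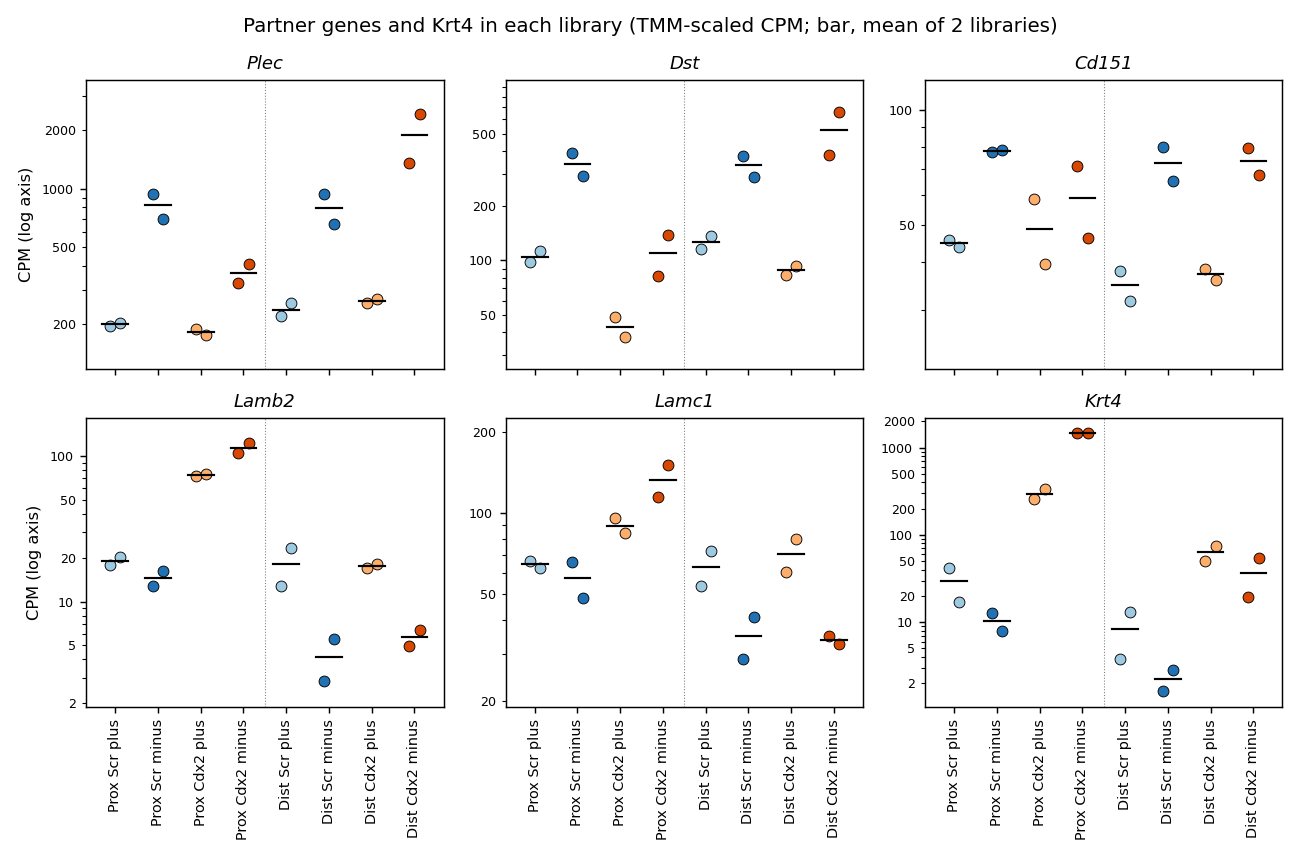
Each panel plots the TMM-scaled CPM of a partner gene, or of the squamous keratin gene Krt4, on a log axis in the 16 libraries, with a bar at the mean of 2 libraries and groups named as in the plot of levels. Plec reaches 1350 and 2440 CPM in distal Cdx2-sgRNA WENR-minus organoids, and Lamb2 is over 70 CPM in the 4 proximal Cdx2-sgRNA libraries and below 24 in the other 12.

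Comparing the media called 2 to 6 of the adhesion genes in each setting, and comparing the guides 0 to 2. In proximal Scramble-sgRNA organoids 4 of the 9 were called higher in WENR-minus medium (Itga3, Itgb4, Lama3 and Lamb3) and 0 lower, where 8.73% of the 15289 tested genes rose and 8.24% fell. In proximal Cdx2-sgRNA organoids 2 were higher (Itga3 and Lamb3) and 0 lower, against 3.42 and 2.98% of all genes. Distal Scramble-sgRNA organoids had 2 higher (Lama3 and Lamb3) and 1 lower (Itga2), against 12.2 and 14.2%. Distal Cdx2-sgRNA organoids had 5 higher (Itga3, Itgb4, Lama3, Lamb3 and Lama5) and 1 lower (Itga2), against 14.9 and 18.1%. The median change was 0.92, 0.58, 0.61 and 1.13 in this order over the members read above the floor in both media (8, 8, 8 and 9 of them, Col17a1 being left out of the first 3), and −0.06, −0.03, −0.11 and −0.10 over all tested genes. The members were not drawn at random, and these shares describe them only.

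**Figure D4:**
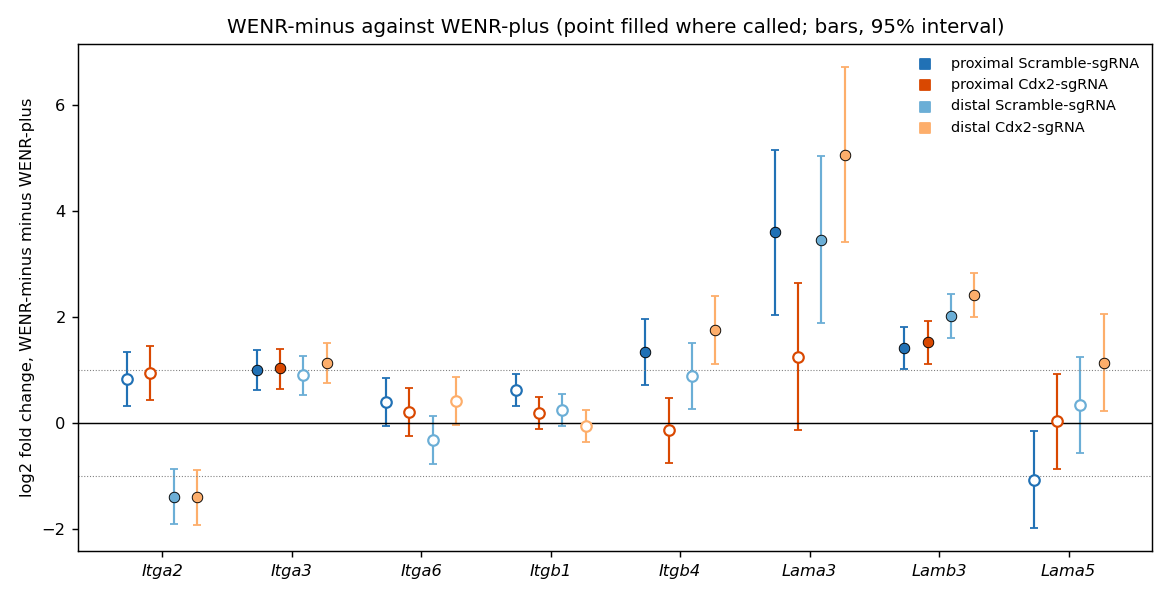
Points give the log2 fold change of WENR-minus minus WENR-plus medium for each gene in the 4 combinations of region and guide, with 95% intervals from the edgeR fit, filled where called, and dotted lines at 1 and −1. Lamb3 is filled in all 4 at 1.42 to 2.41, and Itga2 lies at 0.83 and 0.95 in proximal and at −1.39 and −1.40 in distal organoids.

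Whether the response to the medium differed between the guides was tested directly. By edgeR 0 members were called in proximal organoids (3 at an unadjusted p under 0.05, 2 called by DESeq2, 3.60% of all genes called in either direction) or in distal organoids (1 at an unadjusted p under 0.05, 0 called by DESeq2, 0% of all genes). The lowest adjusted p was that of Itgb4 in proximal organoids, where the Cdx2-sgRNA response minus the control response was −1.48 (SE 0.40, adjusted p = 0.0614). With the block within region and guide 3 members were called in proximal organoids, beside 10.4% of all genes: Itgb4 (−1.45, SE 0.23, adjusted p = 0.00429), Lama3 (−2.02, SE 0.55, adjusted p = 0.0349) and Lama5 (1.14, SE 0.28, adjusted p = 0.0239). In distal organoids 0 were called with it, beside 0.314% of all genes. Without the block, the proximal difference for Lama3 was −2.35 (SE 0.92, adjusted p = 0.169) and the distal one 1.60 (SE 0.95, adjusted p = 0.632), so equal responses were not shown either, with 95% intervals of −4.36 to −0.33 and −0.48 to 3.68.

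Cdx2-sgRNA was compared with Scramble-sgRNA in each region and medium. In proximal organoids 2 members, Lama3 and Lama5, were called higher and 0 lower in WENR-minus medium, where 9.04% of all tested genes were higher and 12.1% lower. Lama3 and Lama5 were also the 2 called higher in proximal WENR-plus medium, with 0 lower, against 6.93 and 8.94%. In distal WENR-minus organoids 1 member, Itgb4, was higher and 0 lower, against 2.24 and 3.00%, and 4 of the 9 (Itga3, Itga6, Itgb4 and Lamb3) passed the test at any size, all higher. In distal WENR-plus organoids 0 were called by edgeR or by DESeq2 (2 at an unadjusted p under 0.05), against 0.137 and 0.124% of all genes. The median change over the 8 members other than Col17a1 was 0.03, 0.26, 0.96 and 0.33 in this order, beside −0.00, −0.05, 0.00 and −0.01 over all genes.

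**Figure D5:**
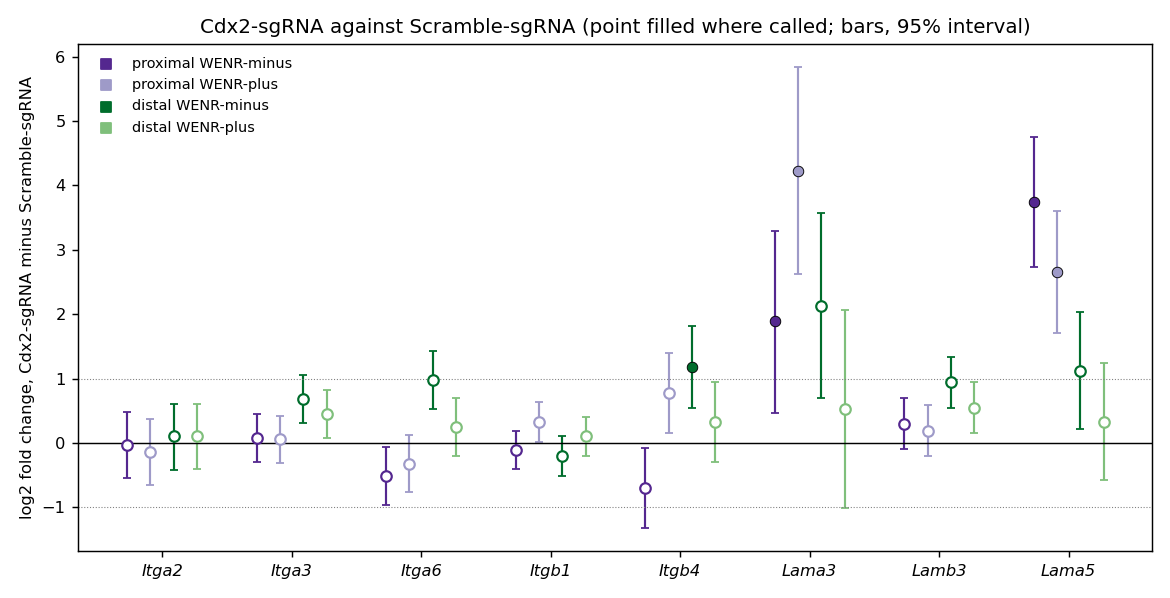
Points give the log2 fold change of Cdx2-sgRNA minus Scramble-sgRNA organoids for each gene in the 4 combinations of region and medium, with 95% intervals from the edgeR fit, filled where called, and dotted lines at 1 and −1. Lama5 lies at 3.75 and 2.66 in proximal organoids, and Itgb4 and Itga6 lie on opposite sides of 0 in proximal and distal WENR-minus organoids.

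Whether the guide acted differently in the regions was tested as the proximal minus the distal effect. In WENR-minus medium this was called for 3 members, beside 14.3% of all genes in either direction. These were Lama5 at 2.62 (SE 0.59, adjusted p = 0.0122), Itgb4 at −1.88 (SE 0.40, adjusted p = 0.00933) and Itga6. The Lama5 difference was 1.70 (adjusted p = 0.0463) without distal Scramble-sgRNA replicate 2. In WENR-plus medium 1 member was called, beside 4.98% of all genes: Lama5 at 2.32 (SE 0.59, adjusted p = 0.0422). That call was lost without any 1 of 7 of the 8 libraries (adjusted p = 0.0736 to 0.166), and only leaving out distal Scramble-sgRNA replicate 1 kept it. Lama3 had 3.70 (SE 0.98, adjusted p = 0.0515) there, which did not pass in this fit. It was called with a replicate block (3.74, adjusted p = 0.0363), at least 10 reads in every library (3.74, adjusted p = 0.0486), library size alone (3.55, adjusted p = 0.0483), length-scaled counts (4.15, adjusted p = 0.032) and DESeq2 (3.75, adjusted p = 0.000744), with no filter, and without proximal Cdx2-sgRNA WENR-plus replicate 2 (4.24, adjusted p = 0.0424).

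The regions were compared within each guide and medium. In Scramble-sgRNA WENR-minus organoids 1 member, Itga2, was called higher in proximal colon (1.68, SE 0.24, adjusted p = 0.00210) and 1, Lama5, lower (−1.81, SE 0.43, adjusted p = 0.0222), against 2.88 and 3.20% of all genes. The Lama5 call was lost without proximal replicate 2 (−1.46, adjusted p = 0.184) or distal replicate 2 (−0.88, adjusted p = 0.209) and when only its own 4 libraries were fitted (−1.80, adjusted p = 0.0966). Itga6 was 0.90 (SE 0.21, adjusted p = 0.0193) higher in proximal colon, short of the fold threshold. In Scramble-sgRNA WENR-plus organoids 0 members were called by edgeR or DESeq2 (1 at an unadjusted p under 0.05), against 0.680 and 1.07% of all genes.

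In Cdx2-sgRNA WENR-minus organoids Itga2 was called higher in proximal colon (1.56, SE 0.24, adjusted p = 0.000331), and Itgb4 (−1.41, SE 0.29, adjusted p = 0.00204) and Lamb3 were called lower, 1 and 2 members against 18.1 and 16.5% of all genes. The Itgb4 call was lost with library size alone (−0.70, adjusted p = 0.0343). Itgb1 was 0.40 (SE 0.14, adjusted p = 0.0340) higher there, short of the fold threshold. Itga3 and Itga6 were also lower there (−0.62 and −0.59, adjusted p = 0.0106 and 0.0331), and both turned with library size alone (0.09 and 0.12). Lama5 was at 0.82 (adjusted p = 0.121) and came to be called higher with library size alone (1.52, adjusted p = 0.00923). In Cdx2-sgRNA WENR-plus organoids Lama3 (3.98, SE 0.72, adjusted p = 0.00235) and Lama5 (1.92, SE 0.42, adjusted p = 0.00666) were called higher in proximal colon and 0 members lower, against 7.40 and 9.57%. Itga2 (−0.79, SE 0.23, adjusted p = 0.0272) and Itga3 (−0.51, SE 0.17, adjusted p = 0.0412) were lower, short of the fold threshold, and Itga2 came to be called without proximal replicate 1 (−1.22, adjusted p = 0.00488). The Lama5 call was lost without distal replicate 1 (1.80, adjusted p = 0.0618). Last, the region difference was compared between the media. In Scramble-sgRNA organoids it changed for 1 member, Itga2, beside 0.0719% of all genes. In Cdx2-sgRNA organoids it changed for 3, beside 17.6%: Itga2, Itgb4 (−1.89, SE 0.40, adjusted p = 0.00717) and Lama3 (−3.81, SE 0.93, adjusted p = 0.0137). With the block within region and guide Lama5 was called as well (−1.12, SE 0.28, adjusted p = 0.0123). The Lama3 call was lost without proximal WENR-plus replicate 1 (−2.94, adjusted p = 0.0516) or distal WENR-plus replicate 2 (−3.72, adjusted p = 0.0604).

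Other genes of the same machinery were counted from a fixed list of 50, of which 37 had enough reads to be tested. Without Wnt factors, 6 of the 37 rose and 2 fell in proximal Scramble-sgRNA organoids, where 8.73 and 8.24% of all tested genes did, and 5 rose and 0 fell in proximal Cdx2-sgRNA organoids (3.42 and 2.98% of all). In distal organoids 8 rose and 5 fell with Scramble-sgRNA (12.2 and 14.2% of all), and 8 rose and 6 fell with Cdx2-sgRNA (14.9 and 18.1% of all). Among 7 tested integrin subunits outside the members, 3 rose in proximal controls, led by Itgav, the alpha-v chain (log2 fold change 1.47, SE 0.13, adjusted p = 0.000107), and 1 in proximal Cdx2-sgRNA organoids, Itgb6, a partner of that chain (1.81, SE 0.30, adjusted p = 0.00432). In distal organoids 4 of the 7 rose and 1 fell with either guide. No other laminin chain was called higher without Wnt factors. Of 4 tested, 2 fell in proximal controls, 0 in proximal Cdx2-sgRNA organoids, 2 in distal controls and 3 in distal Cdx2-sgRNA organoids. Lamb2 was at −2.10 and −1.63 in the distal ones. In proximal Cdx2-sgRNA organoids Lamc1 held 95.7 and 84.1 CPM in WENR-plus and 115 and 151 in WENR-minus medium. Lamb2 was also higher there without Wnt factors, with no overlap, and neither rise was called. With Cdx2-sgRNA, 9 of the 37 were higher and 6 lower in proximal WENR-minus organoids (9.04 and 12.1% of all genes). Of the 7 integrin subunits, 1 was higher there, Itgb6 at 3.07 (SE 0.31, adjusted p = 4.01e-05). Another 2 were lower, and the lower Itga9 had the largest called change of the 7. Proximal WENR-plus organoids had 7 higher and 7 lower (6.93 and 8.94% of all). Distal WENR-minus organoids had 3 and 0, against 2.24 and 3.00% (among them Plec and Col18a1, the collagen XVIII of basement membranes), and distal WENR-plus organoids 0 by edgeR, against 0.137 and 0.124% (6 at an unadjusted p under 0.05, and 1 called by DESeq2).

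Among the members, Itga3 and Lamb3 had the most similar levels over the 16 libraries (Pearson r = 0.958 of log2 CPM), followed by Itgb4 and Lamb3 (0.824) and Itga3 and Itgb4 (0.809). Lama5 had 0.594 with Lama3 and lower values with the rest, and Itga2 had −0.385 with Lamb3. Among 9900 genes over 5 CPM on average, those most like Lamb3 were Mxd1, Capn5 and Arhgef5 (r = 0.984, 0.984 and 0.983), and those most like Itga3 were Plxnb2, Lmtk2 and Cdc42bpb (0.971, 0.968 and 0.966). Met, Aim2 and Vamp8 were most like Lama3 (0.964, 0.957 and 0.952), Plin3, Cyld and Xiap most like Itgb4 (0.933, 0.920 and 0.918), and Tctn1, Cep170 and Cdk19 most like Lama5 (0.947, 0.941 and 0.939). For the remaining members the nearest gene was Socs6 for Itga6 (0.917), Pigb for Itga2 (0.883), Nfe2l2 for Itgb1 (0.835) and, at its few reads, Pym1 for Col17a1 (0.885). The points share libraries of 8 groups, so these values describe shared differences between groups.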

How the data were processed

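RNA of 16 colon organoid libraries was read by stranded total RNA sequencing. Per the paper's methods, the authors ran Salmon 1.1.0 on GENCODE vM23 transcripts (mm10) and deposited for each library and transcript an estimated count, a TPM and an effective length. The deposited TPM values come from the same Salmon runs and were summed per gene. The members and the gene lists were chosen with earlier results of these data known.

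Estimated counts were summed per gene through the GENCODE vM21 annotation (GRCm38), the one at hand, which matched 139864 of 140748 transcripts. The 884 unmatched ones took at most 0.509% of a library. Sums were rounded, genes were filtered with filterByExpr, and 15289 genes were tested, all 9 members among them. The main test was the quasi-likelihood test of edgeR 4.0.16 (R 4.3.3, limma 3.58.1) with TMM factors, fitted over all 16 libraries, with Benjamini-Hochberg adjustment over all tested genes. A gene was called where its adjusted p was below 0.05 and its log2 fold change beyond 1 in size. The named genes were the members, Cdx2, Plec, Dst, Cd151, up to 2 called genes of each other pathway list in a comparison and the 3 genes most like each member. Bcam was picked after its values were seen. A further gene of the rule is not reported here. On simulated counts for the guide comparison in proximal WENR-minus organoids, with 15289 genes, the test recovered 32.8% of 67 genes changed 2-fold, 92.5% of 67 changed 4-fold and 100% of 66 changed 8-fold. DESeq2 1.42.0 was an alternative.

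Groups came from the labels. These call the 2 libraries of a group biological replicates and do not say which mouse a number marks, so the p-values measure the spread between these libraries. Promoter windows came from RefSeq (GRCm38.p6), and windows of Itga6, Itgb4 and Lama3 were not used here.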

Additional observations from a re-analysis of the deposited data

Results flagged for a closer look

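In 8 tests an effect on a member differed between groups of organoids and the difference was called by edgeR. In WENR-minus medium the guide's effect in proximal organoids minus that in distal ones was −1.49 for Itga6, −1.88 for Itgb4 and 2.62 for Lama5, on the log2 scale, and in WENR-plus medium it was 2.32 for Lama5. The response of Itga2 to the medium in proximal minus distal organoids was 2.22 with Scramble-sgRNA and 2.34 with Cdx2-sgRNA. With Cdx2-sgRNA the same difference was −1.89 for Itgb4 and −3.81 for Lama3. All groups held 2 libraries, so single libraries were not tested as outliers.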

How the results depend on the processing

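Of the changes of single members, 655 values under other settings kept their direction and side of the threshold, 39 came to pass it, 16 no longer did and 3 reversed. With 1 library left out, 396 kept them, 13 came to pass, 34 no longer did and 1 reversed. These counts leave out Col17a1, changes that were small in the full fit and the setting without a fold threshold. Reversals of such small changes are therefore not among them. The reversed values are Itga6 between media in distal Cdx2-sgRNA organoids (0.41, and −0.27 by library size only), Itga3 and Itga6 between regions in Cdx2-sgRNA WENR-minus organoids (−0.62 and −0.59, and 0.09 and 0.12 by library size only), and Lama3 between regions in Scramble-sgRNA WENR-minus organoids, which was 0.42 and ranged from −1.16 without proximal replicate 1 to 1.15 without proximal replicate 2. None of the 4 was called. Library size only was added after the data were seen, and it moves the median of all genes with it. With no filter, adjusted p values of calls that came to pass were far lower at nearly the same fold changes. For Lama3 between the guides in distal WENR-minus organoids the values were 2.15 (adjusted p = 1.55e-19), against 2.13 (adjusted p = 0.0622) in the full fit. The reason was not tested.

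The following numbers of members called moved by more than 1.5 times. Fitting only the libraries of the comparison gave 1 for the guides in proximal WENR-minus organoids (2 in the full fit), 2 in distal WENR-minus ones (1), 0 for the media in proximal Cdx2-sgRNA organoids (2) and 1 for the regions in Scramble-sgRNA WENR-minus organoids (2). Without a fold threshold it was 4 for the guides in distal WENR-minus organoids (1), 5 for the media in distal Scramble-sgRNA organoids (3), and 6 (3) and 4 (2) for the regions in Cdx2-sgRNA WENR-minus and WENR-plus organoids. For the guides in distal WENR-minus organoids it was 3 with no filter, with at least 10 reads in every library or with DESeq2, and 0 by library size only. For the media in proximal Cdx2-sgRNA organoids it was 1 with at least 10 reads in every library or by library size only. For the difference of the guide effect between regions in WENR-plus medium (1) it was 2 with no filter, with at least 10 reads, by library size only, with length-scaled counts or with DESeq2. For the difference of the medium effect between guides (0) it was 3 with no filter, 1 with at least 10 reads, 1 with length-scaled counts and 2 with DESeq2 in proximal organoids, and 1 with no filter in distal ones. For the region difference between media in Scramble-sgRNA organoids (1) it was 0 with RLE size factors and 2 with no filter. The cause of these moves was not tested beyond what each setting itself removes.

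A replicate block gave 2 called members for the guides in distal WENR-minus organoids and 2 for the difference of the guide effect between regions in WENR-plus medium, and moved no other count. Libraries with the same number deviated together between the media of 1 region and guide (correlation 0.339 to 0.629) and less elsewhere (−0.077 to 0.241), so the numbers were not taken as pairs across all groups. A replicate block within each region and guide, added after the data were seen, gave 3 called members for the difference of the medium effect between guides in proximal organoids (0 without it), and moved no other of the 8 counts between media by more than 1.5 times. The labels do not say whether libraries of the same number came from 1 culture.

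With each library left out in turn, the number called for the guides ranged from 1 to 2 in proximal WENR-minus organoids, from 2 to 3 in proximal WENR-plus ones and from 0 to 1 in distal WENR-minus ones. For the media it ranged from 3 to 4 (proximal Scramble-sgRNA), 1 to 3 (proximal Cdx2-sgRNA) and 3 to 5 (distal Scramble-sgRNA), and was 5 throughout in distal Cdx2-sgRNA organoids. For the regions it ranged from 1 to 2 in Scramble-sgRNA WENR-minus and from 1 to 3 in Cdx2-sgRNA WENR-plus organoids, and was 3 in Cdx2-sgRNA WENR-minus ones. For the guide effect between regions it was 3 in WENR-minus and from 0 to 1 in WENR-plus medium. For the medium effect between guides in proximal organoids it was 0 to 1, and for the region difference between media it was 0 with Scramble-sgRNA and 2 to 4 with Cdx2-sgRNA. With 2 libraries a group, a group left with 1 is assumed to vary like the others.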
